A study of Mus musculus with 10 samples.

Results

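The genes described here are 35 interferon-stimulated genes, read in epithelial cells of the mouse ileum with and without the gene for a chain of MHC class II. They were chosen by symbol from a list of genes known to respond to type I and type III interferon. All 35 matched a row of the deposited count table, which holds 13932 genes. Ifit1bl1 and Ifit3b stood there under older symbols and were matched by Ensembl identifier. No listed gene was absent, and all 35 were among the 12477 genes abundant enough to test. They were split by role into 5 sensors of foreign nucleic acid, 4 transcription factors and 26 effectors.

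Each of the 10 libraries held RNA from sorted cells of the ileum of 1 mouse that were live, negative for the leukocyte protein CD45 and positive for the epithelial protein EpCAM. All mice carried 2 floxed copies of H2-Ab1, which encodes the beta chain of the class II molecule. The 5 WT mice were H2-Ab1 fl/fl; Villin:Cre-, and the 5 dIEC mice were H2-Ab1 fl/fl; Villin:Cre+ by their labels, where Cre is driven by the promoter of villin, a protein of the epithelial brush border. The text of the series writes Cre- for both groups, and the labels were followed. Each genotype had 3 males (WT 2, 4 and 6, dIEC 1, 3 and 5) and 2 females (WT 8 and 10, dIEC 7 and 9), and the sources used here give no age. Because every dIEC mouse carried Cre and no WT mouse did, an effect of Cre and an effect of the deletion cannot be told apart.

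Interferons of type I signal through the receptor IFNAR and those of type III through the receptor IFNLR, which is found mainly on epithelium. Both activate the kinases JAK1 and TYK2, and signalling ends in the complex ISGF3, of which STAT2 and IRF9 are subunits. This complex binds interferon-stimulated response elements (ISRE) in the promoters of antiviral genes. Interferon gamma acts mainly through gamma-activated sites (GAS) instead. In the intestine, enterocytes answer viruses such as rotavirus and norovirus mainly through type III interferon, and microbes in the gut maintain a low basal level of the same genes.

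The promoter sequences are given first because these elements are what the genes are known to share. The genes were chosen as known to respond to interferon, so a high share of ISRE matches is no independent finding. RefSeq windows on GRCm38.p6, from 250 bases before to 50 bases after an annotated start, were at hand for 25 of the 35 genes. The ISRE core was searched as GAAA, 2 bases of any kind and GAAA again, on both strands and with overlapping matches allowed. It occurred in 14 of these 25 genes (56.0%), against 1079 of 27025 genes with a window (3.99%) and 335 of 9012 tested genes with a window (3.72%). With the 250 bases before the start alone, 11 of the 25 genes held it (44.0%), against 3.46% of all genes with a window. A match describes the letters in a window and is not evidence of a bound site. In the lines below capitals mark the matches, overlapping matches run together, and each sequence is read 5′ to 3′ on the strand of its gene. The stretches lie before the annotated start at chr4:156200855-156200916 (minus strand) for Isg15, chr19:34640765-34640833 (plus) for Ifit1, chr19:34583353-34583436 (plus) for Ifit3 and chr19:34607749-34607832 (plus) for Ifit3b. The others lie at chr5:120907526-120907565 (minus) for Oas1a, chr5:120887614-120887651 (minus) for Oas1g, chr5:120777705-120777754 (minus) for Oas3, chr8:71537567-71537622 (minus) for Bst2 and chr10:128270256-128270305 (plus) for Stat2. The last line shows the GAS, searched as TTCNNNGAA, of Irf1 at chr11:53769904-53769952 (plus).
Isg15: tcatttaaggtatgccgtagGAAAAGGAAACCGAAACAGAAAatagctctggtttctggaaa
Ifit1: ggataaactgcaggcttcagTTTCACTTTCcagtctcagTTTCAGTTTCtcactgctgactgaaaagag
Ifit3: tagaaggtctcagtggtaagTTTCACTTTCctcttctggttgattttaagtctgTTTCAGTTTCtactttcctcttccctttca
Ifit3b: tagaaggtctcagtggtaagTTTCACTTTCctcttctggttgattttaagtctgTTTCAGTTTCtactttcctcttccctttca
Oas1a: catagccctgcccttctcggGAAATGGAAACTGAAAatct
Oas1g: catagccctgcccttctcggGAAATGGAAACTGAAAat
Oas3: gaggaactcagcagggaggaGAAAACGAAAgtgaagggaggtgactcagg
Bst2: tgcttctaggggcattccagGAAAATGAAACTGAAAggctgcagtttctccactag
Stat2: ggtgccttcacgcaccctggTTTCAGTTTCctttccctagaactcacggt
Irf1: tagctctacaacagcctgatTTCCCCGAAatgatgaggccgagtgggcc

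Isg15 had 3 overlapping matches, which began 78, 72 and 66 bases before its start. Ifit1 had 2, at 104 and 85 bases. The stretches shown for Ifit3 and Ifit3b are the same letters, and their windows share an unbroken run of 169 identical bases. Oas1a and Oas1g share a run of 73. Each of these 4 genes counts separately among the 14 with an ISRE match. In the GENCODE transcripts, 51.2% of the 50-base stretches of Ifit3 also occur in Ifit3b and 44.5% the other way, and 57.6% of those of Oas1a occur in Oas1g and 45.2% the other way. The authors' counting could have divided reads from such stretches between the genes, so the separate values of these 4 genes are uncertain. Matches of Ddx58, Ifih1 and Eif2ak2 began 2, 32 and 18 bases after the start. The GAS pattern occurred in 6 of the 25 genes (24.0%), against 9.55% of all genes with a window. An NF-kB pattern, GGGA, 4 bases of any kind and CC on both strands, occurred in 7 of the 25 (28.0%), against 22.9%. The plot of element positions shows where the ISRE and GAS matches fall.

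**Figure D1:**
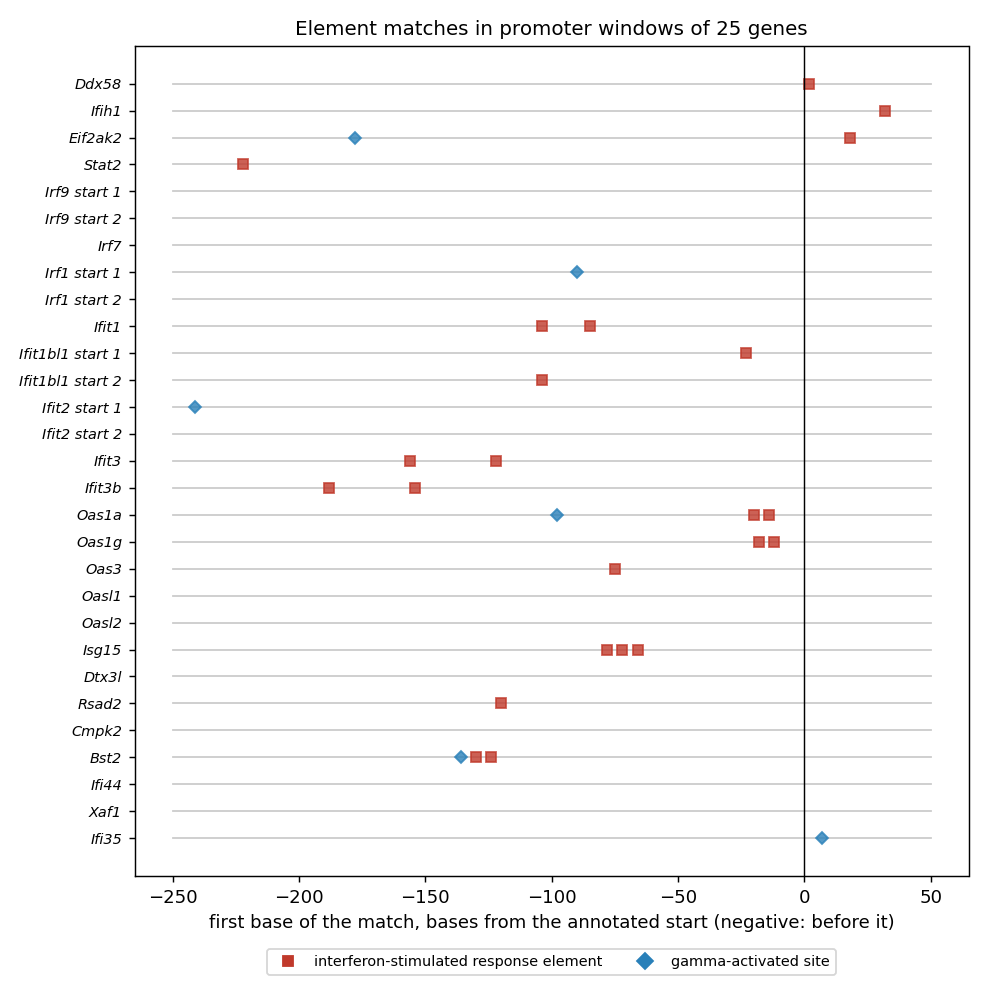
Positions of element matches in the RefSeq promoter windows of 25 interferon-stimulated genes, in bases from the annotated start; grey lines are the windows, red squares ISRE matches and blue diamonds GAS matches. Matches to the ISRE pattern occur in 14 of the 25 genes, among them 3 in Isg15, and genes with more than 1 annotated start have a line for each.

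The labelled cell type was checked against marker genes. All 9 epithelial markers were listed, with a summed level of 13364.9 to 20383.9 CPM per library, where CPM are counts scaled to a common library total. Of 11 general leukocyte markers 3 had a row (Lcp1, Ptprc and Rac2), with a summed level of 2.76 to 11.7 CPM. Of 11 macrophage and dendritic cell markers 3 had a row (Cd68, Csf1r and Itgam), with a summed level of 12.03 to 20.8 CPM, and of 11 T cell markers only Gzma had one, with a largest value of 1.38 CPM. Total counts per library lay between 9174101 and 13484363. H2-Ab1 lay between 62.9 and 368 CPM in the WT libraries and between 0.767 and 3.11 CPM in the dIEC libraries, with no overlap (log2 fold change -6.39, edgeR quasi-likelihood test with Benjamini-Hochberg adjustment, adjusted p = 0.000904).

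None of the 35 interferon-stimulated genes passed the test between dIEC and WT. Under edgeR's quasi-likelihood test with sex as a covariate the lowest adjusted p among them was 0.9999, at a threshold of 0.05. Over all 12477 genes the same test called 2 (0.016%). Fitted differences of 32 of the 35 were nevertheless above 0, with a median log2 fold change of 0.29 and a range of -0.15 (Ifi27l2b) to 0.86 (Ifit2). Over all genes 52.6% were above 0 and the median was 0.01. An unadjusted p under 0.05 was reached by Ifit1bl1 and Ifit2 alone, which is 2 of 35 against 2.85% of all genes. Values of the groups overlapped for all 35, while 22 of all genes (0.176%) lay higher in every dIEC library than in any WT library and 17 (0.136%) lower. Since the samples are bulk RNA, fewer cells of a type and less RNA per cell cannot be told apart in any of these values.

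A pair of female libraries lay at the ends of the range for most of the genes. WT female 8 was the lowest of the 10 libraries for 26 of the 35 genes (74.3%), against 16.3% of all tested genes. dIEC female 7 was the highest for 24 (68.6%), against 24.1% of all tested genes. The mean log2 CPM of the 35 genes was 3.87 in WT 8 and 5.43 in dIEC 7. It was 4.85, 5.00 and 4.72 in WT males 2, 4 and 6, 4.70 in WT female 10, 4.73, 5.04 and 4.99 in dIEC males 1, 3 and 5, and 4.42 in dIEC female 9. The 6 males of both genotypes thus lay within a narrow band, and the females of each genotype stood apart from each other. Without dIEC 7, 21 of the 35 genes were higher in dIEC and the median was 0.03, and without WT 8, 28 were higher and the median was 0.11. Leaving out any other single library gave 31 to 34 higher and medians from 0.27 (without WT 6) to 0.39 (without dIEC 1). With dIEC 7 and WT 8 both left out, 12 were higher, 23 were lower and the median was -0.04. That alternative was added after the data were seen, and the pair was picked as the lowest WT and the highest dIEC library for these genes, so that leaving it out lowers the difference by construction.

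**Figure D2:**
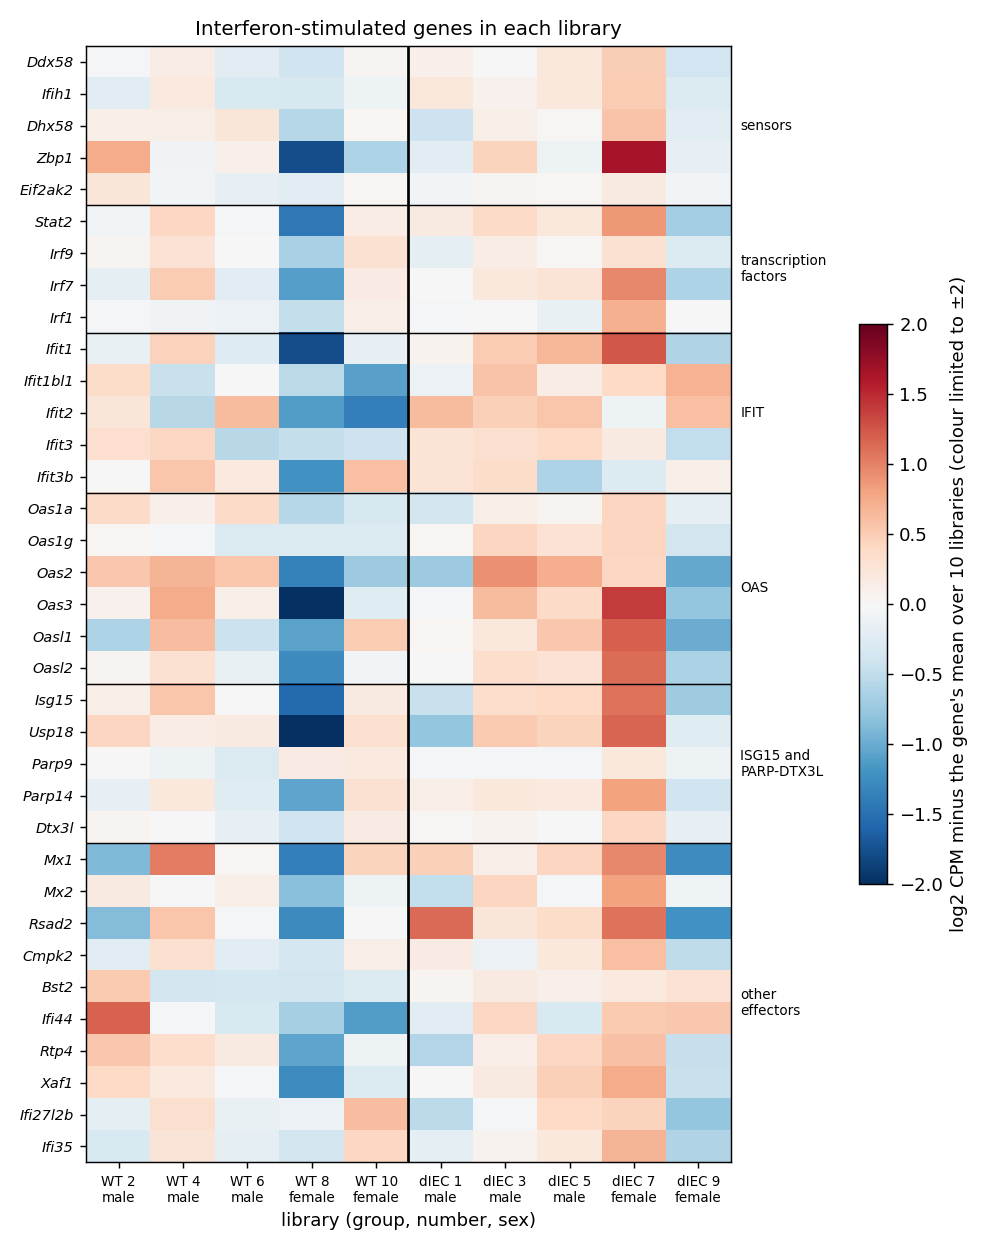
Level of each of the 35 genes in each library, as log2 CPM minus the mean of that gene over the 10 libraries, with WT libraries left of the line and dIEC libraries right of it. WT female 8 is blue in most rows and dIEC female 7 is red in most rows, while the 6 males are mostly pale.

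Relative to the median of the other 4 WT libraries, WT 8 had a ratio under 1 for 34 of the 35 genes, with a median ratio of 0.525. The lowest was 0.167 for Usp18 and the highest 1.15 for Parp9. Relative to the median of the other 4 dIEC libraries, dIEC 7 had a ratio above 1 for 32 genes, with a median of 1.58, a lowest of 0.602 for Ifit2 and a highest of 3.44 for Zbp1. Other measures also differed between the libraries, with WT 8 at the end of the range for some of them only. The mean log2 CPM of 26 proliferation genes was lowest in dIEC 7 (2.89) and highest in dIEC 9 (5.53), with 4.48 in WT 8 and 3.23 in WT 10. That of 13 mature enterocyte markers was highest in dIEC 7 (10.51) and lowest in dIEC 9 (9.19), with 9.52 in WT 8. The mean of the tested interferon gamma response genes was 1.51 in WT 8, 2.45 in WT 10, 4.60 in dIEC 7 and 3.55 in dIEC 9, and 2.89 to 3.69 in the males. Summed levels of the listed leukocyte markers were 3.92 CPM in WT 8 and 2.76 CPM in dIEC 7, the lowest of all libraries. Summed haemoglobin and other red cell genes were at 0 CPM in WT 8 and 0.179 in WT 10, against 13.2 to 28.4 CPM in the other libraries. With the proliferation score as a covariate 33 of the 35 genes were higher in dIEC, with a median of 0.29. The mean of the proliferation genes was close between the genotypes, 4.30 in WT and 4.42 in dIEC. This fit therefore had little room to move the median. The part of the other measures in the values of the interferon-stimulated genes was not tested.

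The 5 sensors were all higher in dIEC by the fitted value, with a median of 0.20, and none passed the test. Zbp1, which senses Z-form nucleic acid and can start cell death, varied most of them. Its levels in CPM were 44.9, 25.5 and 28.8 in WT males 2, 4 and 6, 7.67 and 17.3 in WT females 8 and 10, 23.02, 36.4 and 25.1 in dIEC males 1, 3 and 5, and 84.4 and 23.98 in dIEC females 7 and 9. The WT females were the lowest of the 10 libraries and dIEC female 7 was far the highest, while males of both genotypes overlapped. Its fitted log2 fold change was 0.67 (SE 0.53) over both sexes, 2.11 (SE 0.60) within females and -0.23 (SE 0.47) within males. With single libraries left out it ran from 0.14 (without dIEC 7) to 0.94 (without WT 2) over both sexes. In the interaction term, which tests whether the genotype difference depends on sex, Zbp1 had 2.34 on the log2 scale and an unadjusted edgeR p of 0.0125 that did not survive adjustment (adjusted p = 0.999997).

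Ifih1 encodes MDA5, a cytosolic sensor of long double-stranded RNA. It stood at 111, 148, 106, 105 and 121 CPM in the WT libraries and 153, 138, 150.1, 186 and 108 CPM in the dIEC libraries, which here and in later lists come in the order WT 2, 4, 6, 8 and 10 and dIEC 1, 3, 5, 7 and 9, males before females. The dIEC values ran higher apart from female 9, and WT male 4 lay among them, with a log2 fold change of 0.31 (SE 0.17). Ddx58 encodes RIG-I, which binds RNA with a triphosphate end, and its levels were 101, 114, 88.02, 78.5 and 107 CPM in the WT libraries and 111, 104, 121, 145 and 78.8 CPM in the dIEC libraries. Its difference of 0.20 (SE 0.18) lay close to its standard error. Dhx58, or LGP2, modulates both of these sensors and had a difference of 0.04 (SE 0.24), with 8.82 ± 1.74 CPM in WT and 9.07 ± 2.54 in dIEC. Eif2ak2 encodes PKR, a kinase that halts translation when it binds double-stranded RNA. It was the least variable of the 35 genes, at 63.8 ± 8.36 CPM in WT and 66.4 ± 4.59 in dIEC, with a difference of 0.06 (SE 0.12) and a highest value only 1.38 times its lowest.

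Of the 4 transcription factors 3 were higher in dIEC by the fitted value, with a median of 0.28, and none passed the test. Stat2, a subunit of ISGF3, had levels in CPM of 61.8, 85.5 and 62.9 in WT males 2, 4 and 6, 23.7 and 71.1 in WT females 8 and 10, 72.8, 83.6 and 75.7 in dIEC males 1, 3 and 5, and 118 and 40.2 in dIEC females 7 and 9. The lowest and the highest library were both female, and the males overlapped. Its log2 fold change was 0.38 (SE 0.34) over both sexes and 0.14 (SE 0.44) within males. With single libraries left out it ran from 0.03 (without dIEC 7) to 0.58 (without WT 10) over both sexes. Irf9, the DNA-binding subunit of ISGF3, differed by -0.01 (SE 0.19), with 66.7 ± 15.8 CPM in WT and 65.9 ± 11.1 in dIEC. Irf9 overlaps Rnf31 on the same strand, so some reads of the 2 genes may not have been told apart.

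Irf7, the factor that amplifies production of type I interferon, stood at 122, 196, 119, 64.4 and 154 CPM in the WT libraries and 138, 159.8, 167, 269 and 90.4 CPM in the dIEC libraries. WT 8 was its lowest library and dIEC 7 its highest, and its difference was 0.34 (SE 0.33). Irf7 overlaps Phrf1 on the opposite strand, so without a stated use of strand some of their reads may not have been told apart. Irf1, a factor induced by interferon gamma as well as by type I interferon, carries the GAS match shown above. Its levels were 316, 308, 297, 232 and 354 CPM in the WT libraries and 316, 323, 292, 528 and 326 CPM in the dIEC libraries. The 6 males lay between 292 and 323 CPM, and dIEC 7 alone stood above all others. Its difference was 0.23 (SE 0.19) over both sexes and 0.02 (SE 0.23) within males. The mean log2 CPM of the 4 factors was 5.96 in WT 8 and 7.58 in dIEC 7, and 6.48 to 7.16 in the other libraries. The plot of role means shows this spread for every role.

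**Figure D3:**
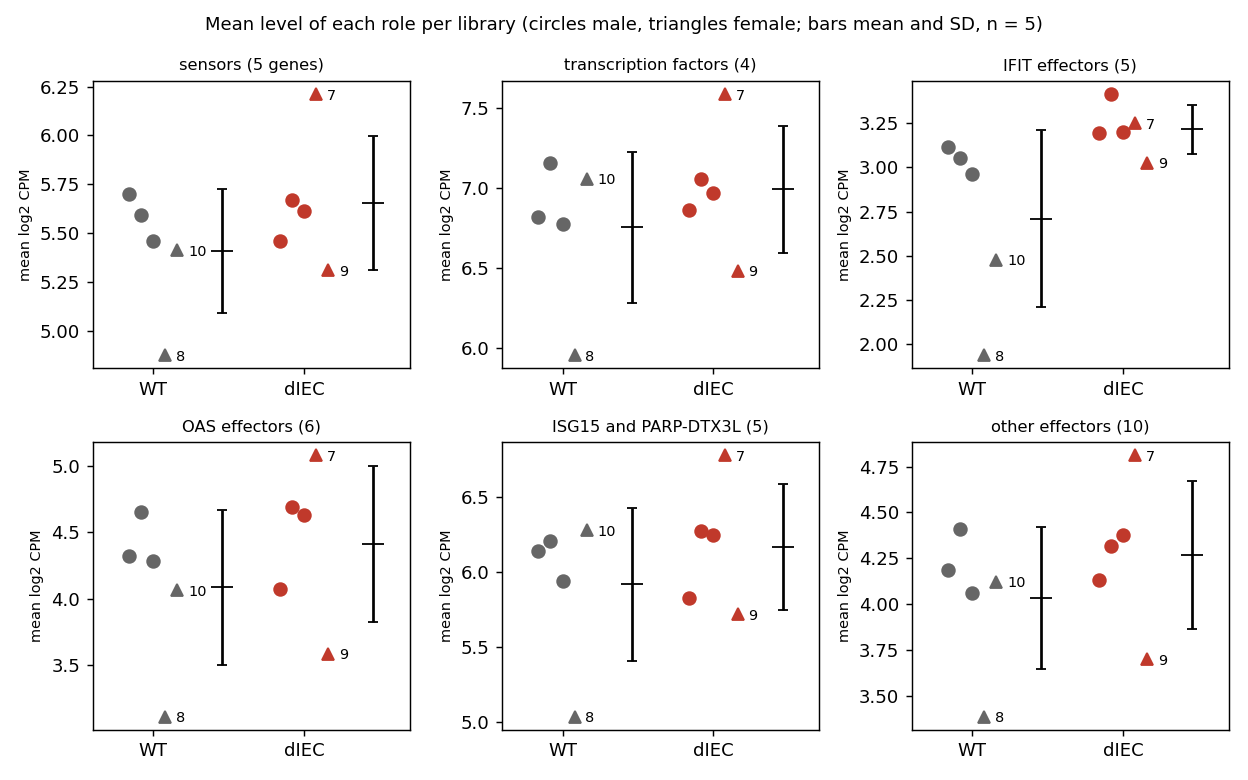
Mean log2 CPM of the genes of each role in each library, with grey WT and red dIEC points, circles for males, numbered triangles for females, and bars for the mean and SD of 5 libraries. WT 8 is the lowest library in each of the 6 panels, dIEC 7 is the highest in all but the IFIT panel, and the WT and dIEC values overlap in each.

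The effectors of the IFIT family had the largest median difference of the roles, 0.67 over 5 genes, with 4 higher in dIEC and none called. IFIT proteins bind viral RNA that lacks the cap marks of the host, and their genes form a cluster on chromosome 19. Ifit1, which recognises such caps, had levels in CPM of 25.9, 39.7 and 24.2 in WT males 2, 4 and 6, 8.25 and 25.6 in WT females 8 and 10, 30.2, 41.2 and 45.9 in dIEC males 1, 3 and 5, and 68.04 and 18.9 in dIEC females 7 and 9. Its libraries ranged 8.24-fold, from WT 8 to dIEC 7, and its log2 fold change was 0.77 (SE 0.40). Ifit1bl1, a gene of the same cluster that is close to Ifit1 in sequence, had 91.8, 52.2 and 70.8 in WT males 2, 4 and 6, 48.9 and 33.6 in WT females 8 and 10, 66.02, 106 and 79.2 in dIEC males 1, 3 and 5, and 93.7 and 116 in dIEC females 7 and 9. Both dIEC females lay above both WT females, and WT males 2 and 6 lay within the dIEC range. Its difference was 0.67 (SE 0.26) with an unadjusted edgeR p of 0.0276, the smallest of the 35 genes in this comparison.

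Ifit2, an RNA-binding member that is also tied to cell death, was at low levels. It stood at 2.83, 1.56, 3.76, 1.001 and 0.807 CPM in the WT libraries and 3.77, 3.36, 3.58, 2.18 and 3.68 CPM in the dIEC libraries, from 9 to 60 counts per library. The WT females were the lowest 2 libraries, WT males 2 and 6 were within the dIEC range, and dIEC 7 was the lowest dIEC library. Its difference was 0.86 (SE 0.34), with an unadjusted edgeR p of 0.0311. Ifit3, a partner of IFIT1, had 4.23 ± 1.48 CPM in WT and 5.04 ± 1.12 in dIEC and a difference of 0.26 (SE 0.24). Ifit3b had 4 to 18 counts per library and a difference of -0.13 (SE 0.42), at 1.14 ± 0.519 CPM in WT and 1.02 ± 0.314 in dIEC. In the IFIT group both WT females stood below all other libraries. Its mean log2 CPM was 1.94 in WT 8 and 2.48 in WT 10, and 2.96 to 3.41 in the other 8 libraries.

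All 6 effectors of the OAS family were higher in dIEC by the fitted value, with a median of 0.38, and none passed the test. OAS enzymes sense double-stranded RNA and make the messenger 2′-5′ oligoadenylate, which leads to the breakdown of RNA in the cell. The genes lie on chromosome 5, with Oas1a, Oas1g, Oas2 and Oas3 in a cluster and Oasl1 and Oasl2 side by side elsewhere. Oas3, the enzyme that makes most of this messenger in many cells, had levels in CPM of 40.9, 64.97 and 41.8 in WT males 2, 4 and 6, 7.75 and 32.8 in WT females 8 and 10, 37.6, 59.8 and 50.5 in dIEC males 1, 3 and 5, and 102 and 22.6 in dIEC females 7 and 9. Its 13.1-fold range from WT 8 to dIEC 7 was the widest of the 35 genes. The difference was 0.63 (SE 0.51) over both sexes, 1.61 (SE 0.74) within females and 0.00 (SE 0.59) within males. With single libraries left out it ran from 0.05 (without dIEC 7) to 0.85 (without WT 4) over both sexes. Oasl2, a related protein with a ubiquitin-like tail, had 74.97, 89.4, 65.3, 29.9 and 69.4 CPM in the WT libraries and 73.1, 92.03, 88.4, 158 and 46.6 CPM in the dIEC libraries. It followed the same order of females, and its difference was 0.50 (SE 0.35).

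Oas1a, a small enzyme of the family, had levels of 19.03, 15.8, 19.1, 9.76 and 11.7 CPM in the WT libraries and 11.3, 15.9, 15.2, 19.7 and 12.8 CPM in the dIEC libraries. Both dIEC females lay above both WT females, and 2 of the 3 dIEC males lay below all WT males. Its difference was 0.59 (SE 0.28) within females, -0.35 (SE 0.23) within males and 0.02 (SE 0.22) over both sexes. The interaction term was 0.94 with an unadjusted edgeR p of 0.0285. Oas1g, which shares stretches with it and is as uncertain, had 8.23, 7.94, 6.57, 6.59 and 6.63 CPM in the WT libraries and 8.27, 10.8, 9.88, 10.9 and 6.20 CPM in the dIEC libraries. Oas1g was the 1 gene of the 35 whose male groups did not overlap, the 3 dIEC males lying above the 3 WT males, against 2.97% of all genes with dIEC males higher (3.64% with dIEC males lower). Its difference was 0.36 (SE 0.19). Oasl1, which represses translation of Irf7, had 56.4 ± 27.9 CPM in WT and 75.1 ± 38.4 in dIEC and a difference of 0.41 (SE 0.43). Oas2 had 9 to 51 counts per library, 2.43 ± 1.32 CPM in WT and 2.65 ± 1.48 in dIEC, and a difference of 0.26 (SE 0.42).

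The 5 genes of the ISG15 pathway and of the PARP9, DTX3L and PARP14 group were all higher in dIEC by the fitted value, with a median of 0.29 and none called. Isg15 encodes a ubiquitin-like protein that is attached to other proteins after interferon. Its levels in CPM were 11.97, 16 and 10.9 in WT males 2, 4 and 6, 3.59 and 12.4 in WT females 8 and 10, 7.95, 13.9 and 14.4 in dIEC males 1, 3 and 5, and 23.2 and 6.56 in dIEC females 7 and 9. Males of both genotypes overlapped, and the females spanned the whole range. Its difference was 0.29 (SE 0.42) over both sexes, 0.89 (SE 0.66) within females and -0.10 (SE 0.54) within males. Usp18, the protease that removes ISG15 and also damps signalling at the type I receptor, had 9.64, 7.94, 8.06, 1.42 and 8.97 CPM in the WT libraries and 4.08, 10.3, 9.71, 16.2 and 6.01 CPM in the dIEC libraries. WT 8 was far below all others, and dIEC male 1 was the next lowest. The difference was 0.37 (SE 0.50). It was 0.01 without dIEC 7, 0.03 without WT 8 and at most 0.61 with a single library left out (dIEC 1).

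Parp9 was among the steadiest genes, with 160.1, 149, 129.9, 178 and 183 CPM in the WT libraries and 155, 157, 157, 183 and 148 CPM in the dIEC libraries. Of the 35 genes it alone had a value in WT 8 above the median of the other WT libraries, and its difference was 0.01 (SE 0.12). PARP9 and DTX3L form a pair that attaches ADP-ribose and ubiquitin to proteins. Their genes overlap on opposite strands between bases 35938470 and 35939151 of chromosome 16. Without a stated use of strand, reads from this stretch cannot be told apart, while most of each gene lies outside it. Dtx3l had 214 ± 31.2 CPM in WT and 236 ± 37.02 in dIEC and a difference of 0.14 (SE 0.16). Parp14, a larger ADP-ribosyl transferase, stood at 393, 507, 374, 211 and 542 CPM in the WT libraries and 484, 511, 502, 768 and 332 CPM in the dIEC libraries. WT 8 was its lowest library and dIEC 7 its highest, and its difference was 0.36 (SE 0.29).

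Of the 10 other effectors 9 were higher in dIEC by the fitted value, with a median of 0.26 and none called. Mx1 and Mx2 encode GTPases that block viral nucleocapsids. Mx1 had levels of 6.23, 23.9, 11.97, 4.42 and 15.9 CPM in the WT libraries and 16.2, 12.8, 15.7, 22.8 and 4.78 CPM in the dIEC libraries. Males and females overlapped in both genotypes, and WT male 4 was the highest library, and its difference was 0.22 (SE 0.49). Mx2 had 6.28 ± 1.56 CPM in WT and 7.65 ± 2.77 in dIEC and a difference of 0.29 (SE 0.29), with both dIEC females above both WT females. Rsad2 encodes viperin, which makes a chain-ending nucleotide, from the product of the neighbouring gene Cmpk2. Rsad2 stood at 4.32, 11.9, 7.90, 3.25 and 8.07 CPM in the WT libraries and 17.9, 9.58, 10.5, 17.4 and 3.37 CPM in the dIEC libraries. dIEC male 1 and dIEC female 7 were its highest libraries, and its difference was 0.73 (SE 0.46), with 0.66 (SE 0.62) within males. Cmpk2, its neighbour on chromosome 12, had 69.1 ± 13.8 CPM in WT and 77.7 ± 21.6 in dIEC and a difference of 0.17 (SE 0.21).

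Bst2 encodes tetherin, which holds budding virus at the cell surface. It had 7.31, 3.85, 3.91, 3.84 and 4.12 CPM in the WT libraries and 5.23, 5.72, 5.37, 5.75 and 6.20 CPM in the dIEC libraries. WT male 2 was its highest library, the other 4 WT libraries lay below all 5 dIEC libraries, and its difference was 0.30 (SE 0.23). Ifi44, an interferon-induced cytosolic protein, had 11 to 67 counts per library. Its levels were 5.57, 2.29, 1.88, 1.42 and 0.986 CPM in the WT libraries and 1.99, 3.19, 1.87, 3.45 and 3.50 CPM in the dIEC libraries. WT 2 was again the highest and the WT females the lowest, and the difference was 1.52 (SE 0.58) within females and -0.47 (SE 0.45) within males. Its interaction term was 1.98, with an unadjusted edgeR p of 0.0242.

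Ifi27l2b, of the family of IFI27, was the most abundant of the 35 genes. Per kilobase of exon its mean over the libraries was 593 CPM, against 82.8 for Irf1, 69.4 for Ifi35 and 49.7 for Parp14, the next in order, and 0.426 for Ifi44, the lowest. Its levels were 544, 777, 564, 570.1 and 957 CPM in the WT libraries and 434, 607, 819, 844 and 363 CPM in the dIEC libraries. WT female 10 was the highest and dIEC female 9 the lowest, the difference was -0.15 (SE 0.28), and the libraries spread far more than the means differed. Ifi35, a partner of NMI, had 116 ± 29.2 CPM in WT and 124 ± 41.02 in dIEC and a difference of 0.10 (SE 0.25). Rtp4, which hinders replication of some viruses, had 9.92 ± 3.57 CPM in WT and 10.02 ± 3.51 in dIEC and a difference of 0.06 (SE 0.32). Xaf1, a factor that promotes cell death, had 6.57 ± 2.47 CPM in WT and 8.34 ± 2.59 in dIEC and a difference of 0.40 (SE 0.31).

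Within females, 2 dIEC mice against 2 WT mice, 33 of the 35 genes were higher in dIEC by the fitted value, with a median of 0.59, and Parp9 and Ifi27l2b were lower. None was called (lowest edgeR adjusted p 0.612), and over all genes 5 were (0.0401%). Zbp1, Ifit1bl1, Ifit2 and Ifi44 had an unadjusted edgeR p under 0.05, 4 of 35 against 4.07% of all genes, and 55.6% of all genes were above 0. For 7 of the 35 genes both dIEC females lay above both WT females, namely Zbp1, Ifit1bl1, Ifit2, Oas1a, Mx2, Bst2 and Ifi44, against 7.53% of all genes in this direction and 10.3% in the other. Without dIEC 7 the median within females was -0.06, and without WT 10 it was 1.28. Within males, 3 against 3, 22 genes were higher (48% of all genes were) and 13 lower, with a median of 0.09. None was called, and none had an unadjusted edgeR p under 0.05, against 2 called (0.016%) and 95 (0.761%) over all genes. Without WT 6 the median within males was -0.03.

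**Figure D4:**
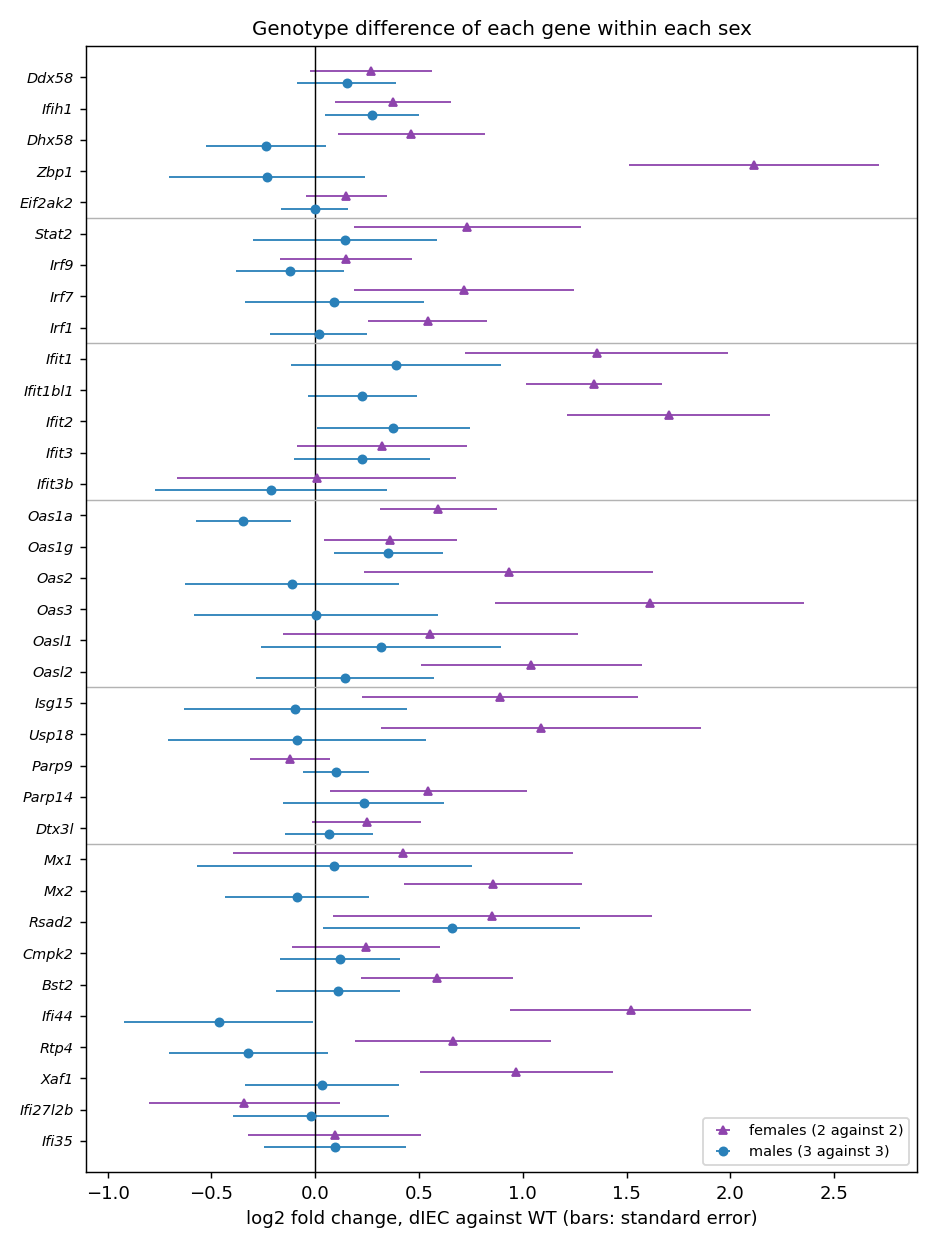
Log2 fold change of dIEC against WT for each of the 35 genes within females (purple triangles, 2 against 2) and within males (blue circles, 3 against 3), with bars for the standard error. The female value is the larger for 32 of the 35 genes, the female values lie between -0.34 (Ifi27l2b) and 2.11 (Zbp1), and the male values lie between -0.47 and 0.66.

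For 32 of the 35 genes the genotype difference was larger in females than in males, with a median interaction of 0.52, and 54.8% of all genes had an interaction above 0. None passed the test of the interaction itself, in which 1 of all genes was called (0.00801%). The called gene was the haemoglobin gene Hbb-bs, with an interaction of 7.86. Of the 35 genes, 4 (Zbp1, Ifit1bl1, Oas1a and Ifi44) reached an unadjusted edgeR p under 0.05, against 2.1% of all genes. The median interaction was -0.15 without dIEC 7 and 1.15 without WT 10. It was -0.37 without WT 8 and dIEC 7 together.

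Between the sexes, 29 of the 35 genes were lower in females and 6 higher by the fitted value, with a median of -0.12, while 58.4% of all genes were higher. None was called, against 5 of all genes (0.0401%). Unadjusted edgeR p-values under 0.05 were reached by Ifit2 and Oas2, against 4.44% of all genes. Within WT, 32 genes were lower in females, with a median of -0.46, and within dIEC 25 were higher, with a median of 0.12. Beside this, all 8 goblet cell markers were lower in WT females than in WT males by the fitted value, with a median of -1.74. Their mean log2 CPM was 7.91 in WT 8 and 7.11 in WT 10, below the other 8 libraries (8.18 to 9.52). All 8 crypt stem cell markers and 8 of 9 Paneth cell markers were also lower, with medians of -1.13 and -1.70, and the part of these markers was not tested. Of all genes 52.2% were higher in females within WT and 63.1% within dIEC. None of the 35 was called within either genotype, against 8 of all genes (0.0641%) within WT and 5 (0.0401%) within dIEC. Within WT, 6 of the 35 (Zbp1, Ifit1bl1, Ifit2, Oas1a, Oas2 and Ifi44) had an unadjusted edgeR p under 0.05, against 6.51% of all genes, and within dIEC 0 had, against 0.753%. The WT median was -0.07 without WT 8 and -1.01 without WT 10, and the dIEC median was -0.51 without dIEC 7 and 0.51 without dIEC 9. In 4 genes, Zbp1, Ifit1bl1, Ifit2 and Ifi44, both WT females lay below all 8 other libraries, against 2.62% of all genes, and in none did both lie above them, against 6.33%.

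Genes with and without the ISRE pattern had similar median differences between the genotypes. The 14 genes with a match had a median of 0.31 on the log2 scale, and 13 of them were higher in dIEC. The 11 genes with a window and no match had 0.29, with 10 higher, and the 10 genes without a window had 0.24, with 9 higher. Within males the medians were 0.15, 0.09 and -0.09 in the same order. No test was made between these sets.

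Across the 10 libraries most of the genes varied together. This is given as a description, because libraries of both genotypes and sexes are mixed and differ in the features listed above. Over 595 pairs the median Pearson r of log2 CPM was 0.626, and 93.3% of pairs were above 0. Of the 35 genes 28 had an r above 0.5 with the mean of the other members. Highest were Oasl2 (0.991), Oas3 (0.987), Ifit1 (0.981), Stat2 (0.968) and Isg15 (0.967). Parp9 was the 1 gene at or under 0 (-0.003). The lowest pair was Ifit2 with Parp9 (-0.665), and the highest Ifit1 with Oasl2 (0.978).

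The same genes differed in what else they followed. The mean of the 35 had an r of 0.661 with the mature enterocyte markers, -0.458 with the proliferation genes and 0.788 with the interferon gamma response genes. Mx1 (0.951), Oasl1 (0.929), Ifi35 (0.915), Cmpk2 (0.891) and Rsad2 (0.865) followed the enterocyte markers most closely. Bst2 (-0.392), Ifi44 (-0.361), Ifit1bl1 (-0.336) and Ifit2 (-0.217) ran opposite to them. Zbp1 was closest to the interferon gamma response genes (0.942), whereas Parp9 (-0.057) and Ifi27l2b (-0.074) had values near 0. All of these rest on 10 libraries.

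**Figure D5:**
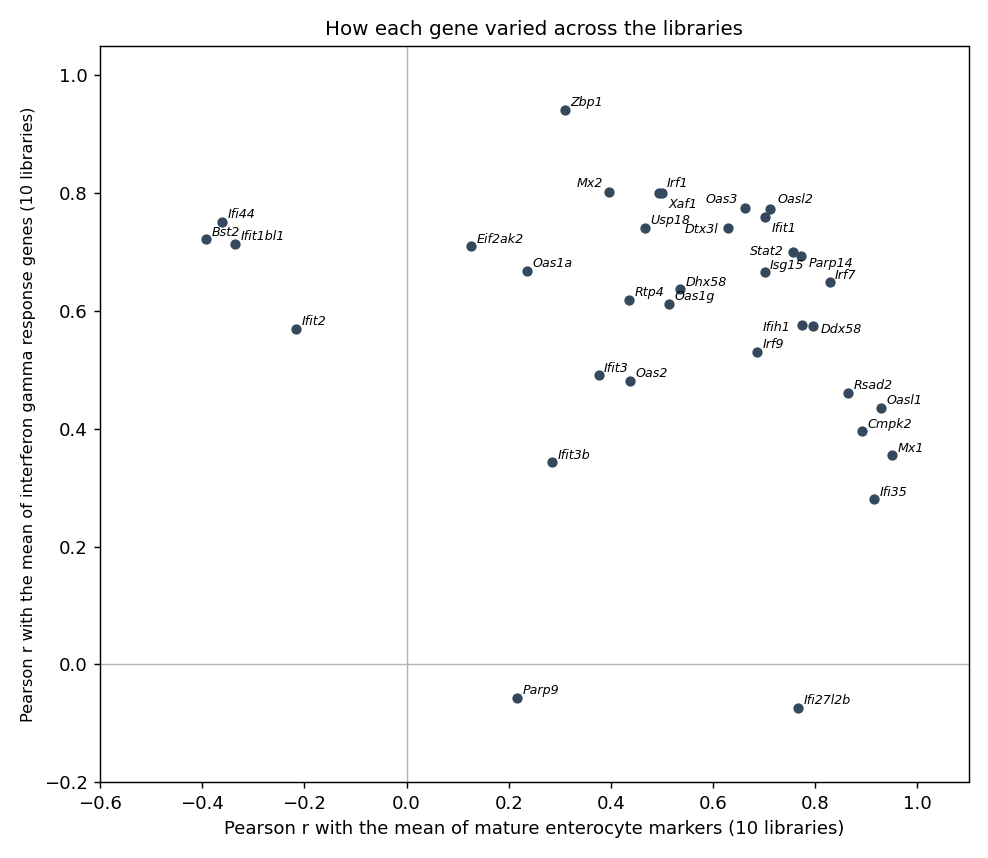
Pearson r over 10 libraries of each of the 35 genes with the mean of mature enterocyte markers (horizontal) and with the mean of interferon gamma response genes (vertical). Mx1, Oasl1, Ifi35, Cmpk2 and Rsad2 lie at the right, Bst2, Ifi44, Ifit1bl1 and Ifit2 left of 0, Zbp1 at the top, and Parp9 and Ifi27l2b just under 0 on the vertical axis.

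The genes upstream of the 35 were read from lists of the same pathway. None of 21 listed interferon genes matched a row, so the ligands were not analysed here. The list of receptors and kinases had rows for all of its genes, and of these 10 genes 7 were higher and 3 lower by the fitted value, with a median of 0.09 and none called. Ifnlr1, the chain specific to type III interferon, had 38.95 ± 11.95 CPM in WT and 46.3 ± 13.9 in dIEC and a difference of 0.25 (SE 0.27). Ifnar1, a chain of the type I receptor, had 70.8 ± 3.85 CPM in WT and 73.4 ± 11.6 in dIEC and a difference of 0.05 (SE 0.13). Tyk2, the kinase of the type I and type III receptors, differed by 0.13 (SE 0.17), and Ifngr1, a chain of the interferon gamma receptor, by 0.10 (SE 0.13).

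Of 18 adaptors and inducers downstream of the sensors 13 were tested, 11 were higher and 2 lower, with a median of 0.15 and none called. The kinase gene Ikbke differed by 0.24 (SE 0.17), the adaptor gene Traf3 by 0.18 (SE 0.15), and Irf3, the first factor to be activated by the sensors, by -0.12 (SE 0.13). Of 13 negative regulators 11 were higher and 2 lower, with a median of 0.10 and none called. Socs1, a feedback inhibitor of JAK kinases, differed by 0.30 (SE 0.31), Rnf125, a ligase that acts on RIG-I, by 0.33 (SE 0.17), Pias1, an inhibitor of interferon signalling, by 0.14 (SE 0.17), and Adar, an enzyme that edits double-stranded RNA, by 0.19 (SE 0.24).

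Of 78 further interferon-stimulated genes 47 were tested, 41 were higher and 6 lower, with a median of 0.24 and none called. Sp100, a nuclear body protein, had 23.3 ± 8.52 CPM in WT and 39.3 ± 15.8 in dIEC and a difference of 0.77 (SE 0.33). It was the 1 gene of the 47 with an unadjusted edgeR p under 0.05, against 2.85% of all genes. Ddx60, a helicase that aids RIG-I, had 64.3 ± 26.3 CPM in WT and 95.4 ± 29.1 in dIEC and a difference of 0.64 (SE 0.29). Oas1b and Oas1c, of the OAS cluster, differed by 0.79 (SE 0.41) and 1.0 (SE 0.46) at means under 3 CPM in both genotypes. The interferon gamma response list had the largest median, 0.82 over 16 tested genes, with 15 higher and 1 lower and none called. Of these 16 genes 4 had an unadjusted edgeR p under 0.05, against 2.85% of all genes. They were Cd274, which encodes the checkpoint ligand PD-L1, and Gbp6, Gbp7 and Gbp8, which encode guanylate-binding proteins. Cd274 differed by 1.66 (SE 0.57), Gbp6 by 1.66 (SE 0.58), Gbp7 by 1.22 (SE 0.50) and Gbp8 by 1.60 (SE 0.52). Within males these 4 genes were also higher in dIEC, Gbp8 by 1.19, Cd274 by 1.099, Gbp6 by 0.85 and Gbp7 by 0.297. Within females the values were larger, 2.33, 2.51, 3.01 and 2.73 in the same order. Over the list as a whole, as with the 35 genes, the higher fitted values lay in the females, which were 2 against 2. The median of this list was 2.42 within females and -0.13 within males. Within WT, 15 of its 16 genes were lower in females than in males by the fitted value, with a median of -1.23. Its mean log2 CPM was lowest in WT 8 (1.51) and highest in dIEC 7 (4.60). No test of this list against the 35 genes was made.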

How the data were processed

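RNA of sorted ileal epithelial cells from 10 mice was sequenced with a stranded kit that removes ribosomal RNA, per the labels' protocols. Raw counts per gene were deposited by the authors. Novoalign and the build mm10 are named in the submitters' processing notes, but which program counted the reads, whether it used strand and with what annotation is not given in the sources used here. Values of overlapping genes and of genes that share long stretches are therefore uncertain. Each library is 1 mouse, so p-values measure the spread between mice. No 2 libraries of a group were alike enough to be repeats (chi-square per degree of freedom from 15.5 to 148.7). Totals were 9174101 to 13484363 counts, which sets the counting precision, and mice vary beyond it.

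Software versions were R 4.3.3, edgeR 4.0.16 for the main tests, limma 3.58.1 and DESeq2 1.42.0. Of the listed genes 12477 (89.6%) passed filterByExpr, and CPM are scaled by TMM. The comparisons are quasi-likelihood tests in edgeR, fitted robustly on genotype and sex, and with their product for the interaction and for contrasts within a sex or genotype. Benjamini-Hochberg adjustment ran over all genes tested, at a threshold of 0.05. Standard errors are the absolute log2 fold change divided by the root of the F statistic. Log2 CPM used a prior count of 2, and errors after ± are SDs over 5 libraries. CPM per kilobase used exon lengths of GENCODE M21. Promoter windows are RefSeq's on GRCm38.p6.

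The 35 genes, their roles and the other lists were chosen with earlier results of these data known. All 35 are named. From each other list the rule took all genes past the threshold in any comparison. It also took up to 4 genes with the smallest genotype p among those averaging at least 1 CPM, and H2-Ab1. Some genes taken by this rule are not reported here. Ifnar1 was named for its role after its values were seen. For likeness the 10 genes whose log2 CPM correlated most with the mean of the 35 are named, from 11131 candidates that exclude gene models.

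On simulated counts for 12477 genes, of which 200 were changed, the genotype test found 1.64% of the genes changed 1.5-fold, 39.4% at 2-fold and 82.4% at 4-fold, and 3 of its 88 calls were false. The interaction test found 26.4% at 4-fold and none at 2-fold. Alternatives were other size factors, no filter, DESeq2, limma voom with sample weights, no sex term, a proliferation score as covariate and leaving out each library. Leaving out WT 8 and dIEC 7 together was added after the data were seen.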

Additional observations from a re-analysis of the deposited data

Results flagged for a closer look

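For each of the 35 genes and each genotype, the highest and lowest of the 5 libraries was compared with its nearest neighbour by Dixon's gap test. In 7 of the 70 groups examined a library stood apart, and chance alone gives about 1 in 20 groups, or 3.5. The genes varied together in the same libraries, so the groups are not independent and no excess over chance can be read from these counts. Among the dIEC libraries, female 7 stood above the others for Zbp1 (84.4 CPM, next 36.4), Irf1 (528 CPM, next 326) and Parp9 (183 CPM, next 157), and below them for Ifit2 (2.18 CPM, next 3.36). Among the WT libraries, female 8 stood below the others for Usp18 (1.42 CPM, next 7.94). WT male 2 stood above the others for Bst2 (7.31 CPM, next 4.12) and Ifi44 (5.57 CPM, next 2.29). Without the library that stood apart, the genotype log2 fold change of Zbp1 went from 0.67 to 0.14, that of Irf1 from 0.23 to 0.058, that of Parp9 from 0.011 to -0.017 and that of Usp18 from 0.37 to 0.027. It went from 0.86 to 0.87 for Ifit2, from 0.30 to 0.53 for Bst2 and from 0.29 to 0.78 for Ifi44.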

How the results depend on the processing

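No paired analysis was possible because the libraries are numbered 1 to 10 and the groups share no number. None of the 35 genes was called under any alternative run. The fits without the sex term, with the proliferation covariate and without WT 8 and dIEC 7 together gave such counts for genotype alone, and the other refitted alternatives for genotype, sex and interaction. An unadjusted p under 0.05 between genotypes was reached by 10 of them under limma voom with sample weights (lowest adjusted p 0.195) and by 12 with the proliferation score as covariate (lowest adjusted p 0.125), where 19.1% and 15.9% of all genes reached it. Over all genes, DESeq2 called 4 for genotype, 9 for sex and 16 for the interaction, limma voom called 0 for the interaction, and the proliferation covariate gave 4 for genotype. The cause was not tested. Under limma voom the sex median of the 35 was 0.0094, and genotype differences turned sign for Dhx58 (-0.083), Irf9 (0.035), Oas1a (-0.21), Rtp4 (-0.10) and Ifi27l2b (0.060). Without the sex term Oas1a had -0.012, and with the proliferation covariate Irf9 had 0.026. Without WT 8 and dIEC 7 together the genotype median was -0.042 and the interaction median -0.37.

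With single libraries left out, the interaction called 0 to 1 genes. The median of the 35 genes ranged from 0.029 to 0.39 for genotype, from -0.47 to 0.0043 for sex and from -0.15 to 1.15 for the interaction. It ranged from -0.055 to 1.28 for genotype within females, from -0.033 to 0.16 within males, from -1.01 to -0.067 for sex within WT and from -0.51 to 0.51 within dIEC. Genotype differences that changed sign ranged as follows. Among sensors and transcription factors they ran from -0.16 to 0.16 for Dhx58, -0.019 to 0.52 for Irf7 and -0.15 to 0.12 for Irf9. Among IFIT and OAS genes they ran from -0.37 to 0.20 for Ifit3b, -0.16 to 0.16 for Oas1a, -0.089 to 0.53 for Oas2 and -0.032 to 0.69 for Oasl1. Among other effectors they ran from -0.15 to 0.47 for Isg15, -0.044 to 0.077 for Parp9, -0.23 to 0.58 for Mx1, -0.038 to 0.30 for Cmpk2, -0.21 to 0.25 for Rtp4, -0.32 to 0.031 for Ifi27l2b and -0.13 to 0.26 for Ifi35. Outside the 35 genes they ran from -0.0004 to 0.24 for Tyk2, -0.039 to 0.44 for Socs1 and -0.041 to 0.29 for Adar. Most of the lowest values came without dIEC 7. Few counts limit Ifit2, Ifit3b, Oas2 and Ifi44, and with 2 females per genotype the interaction test recovers few changes.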

Other observations

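The genes outside the list whose log2 CPM varied most like the mean of the 35 over the 10 libraries were Zfp169 (Pearson r = 0.974), Prkd2 (0.970), Sp2 (0.966), Trim56 (0.966), Il6st (0.966), Dab2ip (0.964), Adar (0.964), Pip5k1c (0.961), Llgl1 (0.961) and Rnf213 (0.961). These are descriptions over 10 libraries that differ in depth and cell makeup. They were taken from 11131 genes with a median r of -0.062 and 1.51% above 0.9. Trim56, Adar and Rnf213 are known interferon-stimulated genes. Rnf213 was the most abundant of the 10, with a mean of 925 CPM, a lowest value of 402 in WT 8 and a highest of 1516 in dIEC 7. Trim56 had 47.1 CPM in WT 8 and 149 in dIEC 7, with 72.4 to 119 in the other libraries.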
